A study of Mus musculus with 4 samples.

Results

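Oxidative phosphorylation genes were defined by gene symbol as the mitochondrially encoded subunit mRNAs (mt-Nd, mt-Co, mt-Cytb and mt-Atp) and the nuclear symbols starting with Nduf, Uqcr, Atp5 or Cox4 to Cox8, together with Sdha, Sdhb, Sdhc and Sdhd. This rule gave 103 members among 33677 symbols, after 5 pseudogene symbols ending in -ps were dropped. Of the members, 13 are encoded by mitochondrial DNA (7 for complex I, 1 for complex III, 3 for complex IV and 2 for complex V). The other 90 are nuclear, with 38 subunits and 7 Ndufaf assembly factors of complex I, 4 subunits of complex II, 8 of complex III, 16 of complex IV and 17 symbols of complex V. The grouping followed the symbols, although Ndufa4 is now regarded as a subunit of complex IV, and Atp5s and Atp5sl do not encode subunits of the enzyme.

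The cells were PyMT-A, a mammary tumour cell line of FVB/NJ mice, grown in DMEM with serum. The vector group was infected with the PMSCV-puro virus and the Jagged1 group with the PMSCV-Jagged1 virus, so both groups carried a retrovirus, and each was sequenced as 2 libraries (vector 1 and 2, Jagged1 1 and 2) from Trizol RNA selected for poly(A). Jagged1 is a ligand of Notch receptors, and the series title names its part in tumour progression and in the response of macrophages and T cells. The numbers 1 and 2 follow the sample titles. In the deposited counts every library carries a different number, so equal numbers are not known to mark a shared batch. The labels do not state whether the libraries came from separate cultures, so the p-values measure the spread between these libraries, which may be technical.

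Oxidative phosphorylation takes electrons from NADH and succinate through complexes I to IV to oxygen, and the proton gradient that this builds drives ATP synthesis by complex V. Complexes I, III, IV and V are assembled from subunits of both genomes, whereas complex II is encoded by nuclear genes alone. Mitochondrial DNA is transcribed from both strands into long precursors that are cut into separate RNAs, most of which then receive short poly(A) tails. Tumour cells can combine aerobic glycolysis with continued respiration.

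Library totals lay between 12136227 counts (vector 2) and 20835208 counts (Jagged1 1). Jag1 rose by a log2 fold change of 4.93 (edgeR adjusted p = 0.0111) and was the 1 gene called among 13299 tested; reads of the virus and of the cell's own gene could not be told apart. The tumour epithelial markers Epcam, Cdh1, Krt8, Krt18, Krt14 and Cldn7 were abundant in every library, with summed levels of 3676 to 4695 CPM (TMM-scaled counts relative to library size), while Krt19 was at or near 0. Summed fibroblast markers, 3 of 4 above the floor of 3 counts, were 4.43, 6.92, 10.1 and 35.5 CPM in vector 1, vector 2, Jagged1 1 and Jagged1 2. Lum was at 0 in every library. The 5 leukocyte markers summed to 0.242 to 3.42 CPM, with Cd3e at 0.

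The sequences shown first are the stretches of mitochondrial DNA that also stand in the nuclear genome, since 6 of the 13 mitochondrial mRNAs had very few counts in all libraries. In GRCm38 (GENCODE M21), chromosome 1 carries copies of a continuous part of mitochondrial DNA on its minus strand, between chr1:24611535-24616197. Annotated pseudogenes there were aligned with the mitochondrial genes. Pairs of 60-base stretches for 3 genes are given 5′ to 3′, each mitochondrial sequence followed by its nuclear copy, and capitals mark the bases that differ.
mt-Co2 (chrM:7323-7382, plus strand): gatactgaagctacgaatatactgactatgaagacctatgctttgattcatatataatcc
Gm28661 (chr1:24615196-24615255, minus strand): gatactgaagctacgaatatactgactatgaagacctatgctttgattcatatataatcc
mt-Nd3 (chrM:9459-9518, plus strand): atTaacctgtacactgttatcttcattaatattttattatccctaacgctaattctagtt
Gm28438 (chr1:24613060-24613119, minus strand): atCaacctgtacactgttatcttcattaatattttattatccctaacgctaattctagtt
mt-Co1 (chrM:6381-6440, plus strand): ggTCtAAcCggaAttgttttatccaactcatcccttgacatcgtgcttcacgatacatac
Gm29216 (chr1:24616138-24616197, minus strand): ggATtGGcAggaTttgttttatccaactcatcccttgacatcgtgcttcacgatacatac
The mt-Co2 pair carries no difference, and the copy was identical to mt-Co2 over all 681 aligned bases. The copies of mt-Co3 (783 bases), mt-Atp6 (678 bases) and mt-Nd4l (294 bases) were identical over their aligned length as well. For mt-Nd3 the copy differed by T3C, counted from 1 at the 5′ end of the mitochondrial gene, and by no other base of 345. The copies of mt-Nd4 and mt-Co1 cover part of the gene, 876 of 1378 bases with 0 mismatches and 492 of 1545 bases with 6 mismatches. Those 6 all lie in the printed stretch, as T1056A, C1057T, A1059G, A1060G, C1062A and A1066T. None of these 7 copies has a row in the count table. All of these sequences are those of the reference assembly, and whether the FVB/NJ cells carry the same bases was not examined.

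Levels of the mitochondrial mRNAs lay in 2 separate ranges. Per kilobase of gene length, mt-Co1, the catalytic core subunit of cytochrome c oxidase, had the highest counted level, at a mean of 5132 CPM per kilobase over the 4 libraries. It was followed by mt-Nd1 at 2577, mt-Cytb at 2170, mt-Nd2 at 1441, mt-Nd5 at 908, mt-Nd6 at 802 and mt-Nd4 at 605 CPM per kilobase. The other 6 were between 1.53 CPM per kilobase for mt-Atp8 and 11.5 for mt-Co2, with mt-Atp6 at 10.7, mt-Co3 at 8.04, mt-Nd4l at 5.42 and mt-Nd3 at 5.18. Every mt mRNA of the upper range was higher per kilobase, in each library, than every mRNA of the lower range.

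A similar division, with mt-Atp8 as the exception, is seen in short sequence words. Of all 50-base words of mt-Co2, mt-Co3, mt-Atp6, mt-Nd4l and mt-Nd3, 100%, 99.9%, 99.5%, 98.8% and 98.0% also occur in a transcript of another annotated gene. The share was 62.2% for mt-Nd4, 51.1% for mt-Co1, 8.2% for mt-Nd2, 7.6% for mt-Nd5 and 0% for mt-Nd1, mt-Nd6 and mt-Cytb. It was also 0% for mt-Atp8, which lies between mt-Co2 and mt-Atp6; no annotated transcript covers the chromosome 1 interval between the copies of its neighbours, so its nuclear copy was not analysed here. How the counting treated reads that align to several places is not given in the sources used here, and its part in the low counts was not tested. Counted per 1000 unshared 50-base words in place of gene length, mt-Co1 stood at 10850 CPM and mt-Nd4 at 1661 CPM, and mt-Nd4 then lay just above mt-Nd2 at 1648 CPM. The counts of the 6 sparse mt mRNAs are therefore given without any statement on how abundant these RNAs were.

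**Figure D1:**
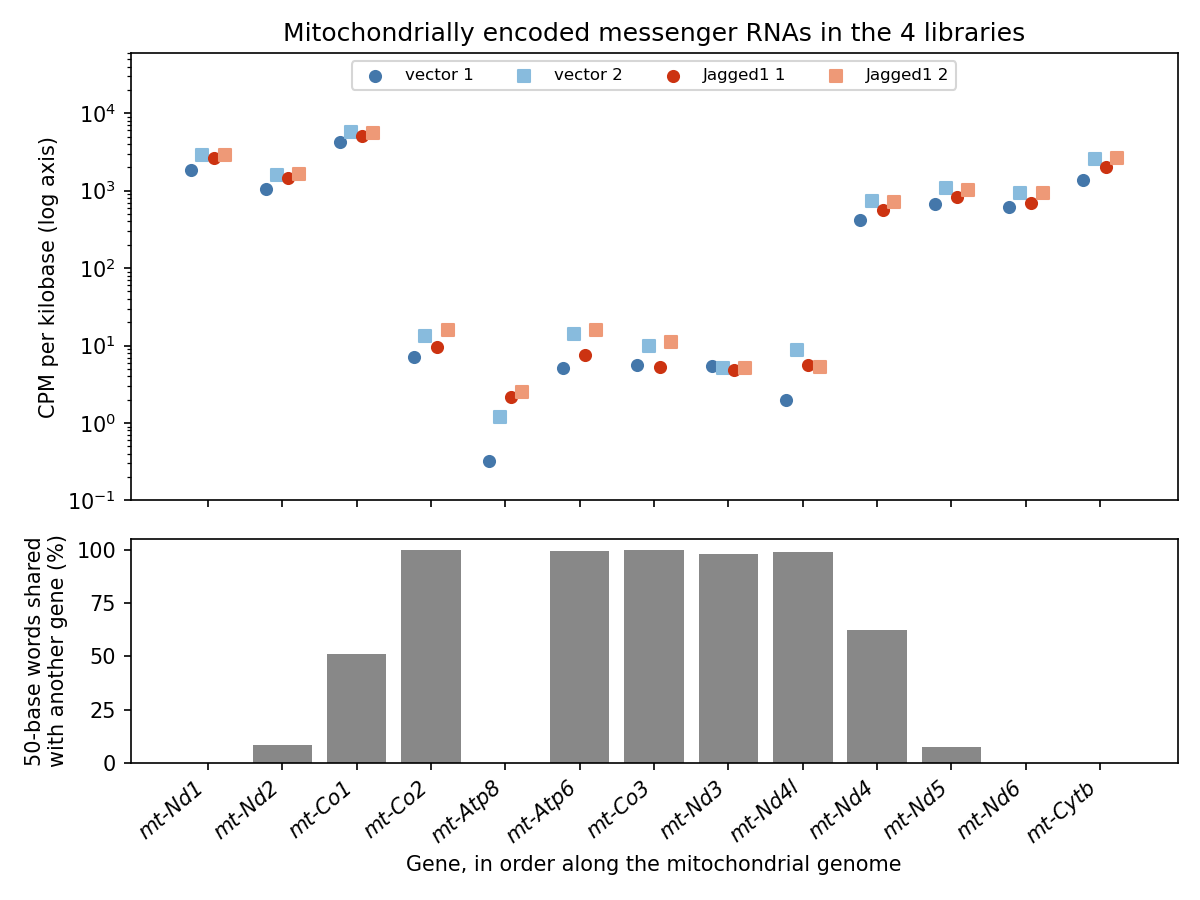
Upper panel, level of each mitochondrial mRNA in CPM per kilobase (log axis) in the 4 libraries (circles for number 1, squares for number 2), with genes in their order along mitochondrial DNA. Lower panel, percentage of the 50-base words of each gene that also occur in another gene's transcripts; mt-Co2 to mt-Nd4l are sparse in every library, and all of them except mt-Atp8 (0%) share 98.0% or more of their words.

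For complex I, mt-Nd1, a membrane subunit near the quinone site, had 1768 and 2778 CPM in vector 1 and 2, and 2543 and 2776 CPM in Jagged1 1 and 2. Vector 1 was the low library, and the other 3 lay close together; the log2 fold change was 0.23 ± 0.25 (SE, n = 2 and 2), which did not pass (edgeR adjusted p = 0.9999). The proton-pumping subunit mt-Nd2 had 1103 and 1651 CPM against 1517 and 1715 CPM, a log2 fold change of 0.23 ± 0.24. mt-Nd4 had 570 and 1008 CPM in the vector libraries and 780 and 978 CPM in the Jagged1 libraries. The Jagged1 values of mt-Nd4 lay inside the span of the vector values, with a log2 fold change of 0.16 ± 0.31. mt-Nd5 was at 1228, 1988, 1524 and 1886 CPM in vector 1, vector 2, Jagged1 1 and Jagged1 2, again with both Jagged1 libraries between the vector libraries.

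mt-Nd6 is the subunit mRNA read from the other strand of mitochondrial DNA (chrM:13552-14070), and its gene overlaps the end of mt-Nd5 (chrM:11742-13565). It was at 320 and 489 CPM in vector 1 and 2 and at 364 and 491 CPM in Jagged1 1 and 2, a log2 fold change of 0.08 ± 0.27. Vector 1 was lowest and Jagged1 1 next lowest, as for the abundant mRNAs of the opposite strand. Whether counting used strand is unknown here, and reads of mt-Nd6 and of RNA complementary to it could not be told apart. The sparse mt-Nd3 had 29, 22, 35 and 25 counts, and mt-Nd4l had 9, 32, 34 and 22 counts, in the same order of libraries. mt-Nd3 did not show the low value of vector 1 (1.92, 1.79, 1.69 and 1.80 CPM), whereas mt-Nd4l did (0.595, 2.61, 1.65 and 1.59 CPM).

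mt-Cytb, the mitochondrially encoded core of complex III, spread most among the abundant mt mRNAs, with 1574 and 2962 CPM in the vector libraries and 2334 and 3060 CPM in the Jagged1 libraries. Its groups overlapped, and the log2 fold change was 0.25 ± 0.34. mt-Co1 was at 6489 and 8796 CPM in vector 1 and 2 and at 7867 and 8566 CPM in Jagged1 1 and 2, a log2 fold change of 0.10 ± 0.21. The remaining complex IV mRNAs were sparse, with 73, 113, 137 and 149 counts of mt-Co2 and 67, 96, 86 and 122 counts of mt-Co3. For complex V, mt-Atp6, which forms the proton channel next to the c ring, had 53, 117, 107 and 151 counts. mt-Atp8 had 1, 3, 9 and 7 counts, too few for the test.

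Together the 13 mt mRNAs made up 1.266% of vector 1 (95% interval 1.261 to 1.272%, exact binomial) and 1.994% of vector 2 (1.986 to 2.002%). In Jagged1 1 and 2 they took 1.681% (1.675 to 1.687%) and 1.994% (1.986 to 2.001%). The intervals cover counting error only. Nearly all of these counts came from the 7 abundant mt mRNAs. The 6 sparse ones summed to 15.3, 31.2, 19.7 and 34.4 CPM in vector 1, vector 2, Jagged1 1 and Jagged1 2. Because most sparse mt mRNAs share nearly all their words with other transcripts, the share may lack reads of them. The group means were 1.63 ± 0.514% for vector and 1.84 ± 0.221% for Jagged1 (SD, n = 2 each), and the difference was smaller than the spread between the vector libraries (exact two-sided permutation p = 1.0; 2 libraries against 2 cannot reach 0.05). Vector 1 was the lowest library for 7 of the 7 abundant mt mRNAs, and for 27.1% of all tested genes. The median log2 fold change of these 7 was 0.16, but Jagged1 1 against vector 1 gave 0.45 and Jagged1 2 against vector 2 gave -0.00086. It was -0.11 without vector 1 and 0.54 without vector 2.

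The nuclear members showed the opposite order of libraries. Their counts took 0.864% of vector 1 (exact 95% interval 0.860 to 0.869%), 0.762% of vector 2 (0.757 to 0.767%), 0.864% of Jagged1 1 (0.860 to 0.868%) and 0.760% of Jagged1 2 (0.756 to 0.765%). The libraries numbered 1 were high and those numbered 2 low, with the groups fully interleaved (exact two-sided permutation p = 0.667). Of the 85 tested nuclear members, 41 had their highest level in vector 1 and 7 their lowest, whereas 34 were lowest in vector 2 and 36 in Jagged1 2. Over all tested genes vector 1 was highest for 26.3%. Against the mean of the 4 libraries, the median nuclear member stood at a log2 deviation of 0.11 in vector 1 and 0.06 in Jagged1 1, and at -0.08 in vector 2 and -0.07 in Jagged1 2. The 7 abundant mt mRNAs stood at -0.42, 0.26, -0.04 and 0.22 in vector 1, vector 2, Jagged1 1 and Jagged1 2.

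Libraries also differed in ribosomal RNA carried through the poly(A) selection. The 18S ribosomal RNA row took 0.982% of the counts of vector 1, 0.0735% of vector 2, 0.177% of Jagged1 1 and 0.0811% of Jagged1 2. The mitochondrial 12S row mt-Rnr1 was also highest in vector 1 and next highest in Jagged1 1, at 0.0662%, 0.0397%, 0.0446% and 0.0346%, while the 16S row mt-Rnr2 stayed between 0.0798% and 0.0837%. The part of RNA carry-over in the low mt mRNA share of vector 1 was not tested. In such bulk samples, fewer cells with a transcript and less of it per cell cannot be told apart.

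**Figure D2:**
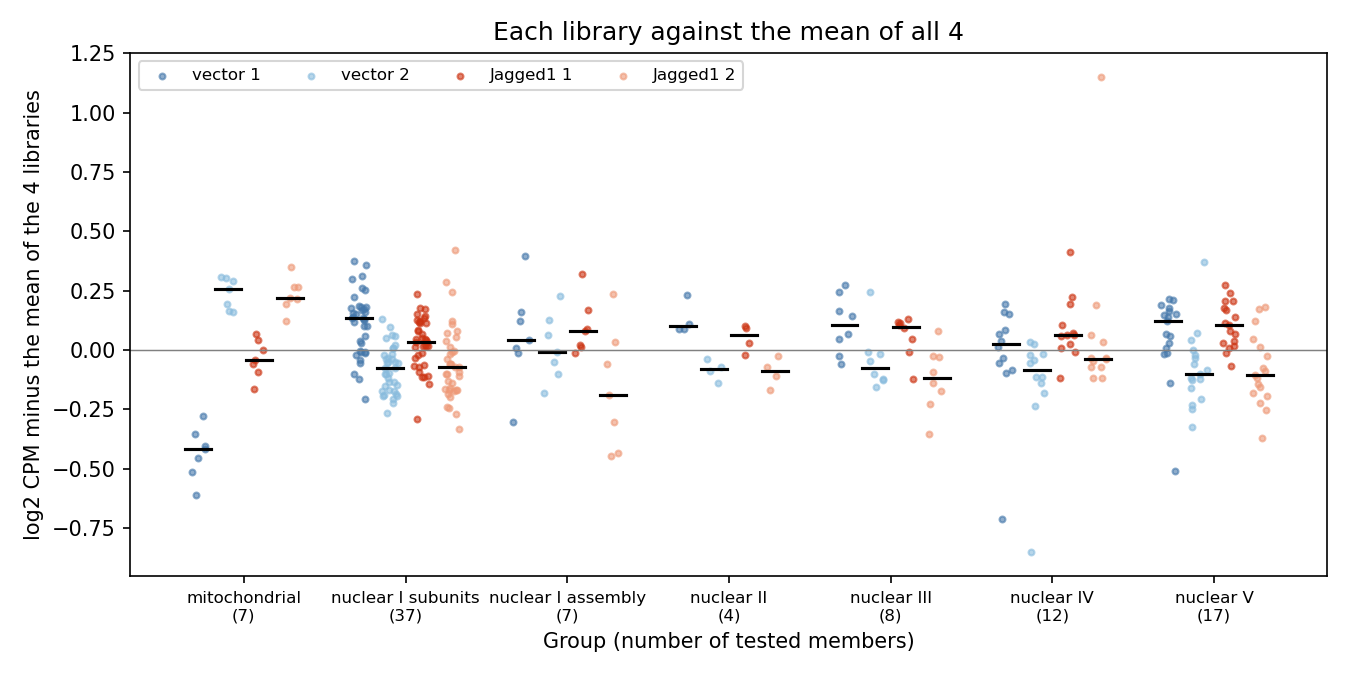
log2 CPM of each tested member minus its mean over the 4 libraries, by group; points are genes, bars are medians, and the mitochondrial group holds the 7 abundant mt mRNAs. The mt mRNAs are lowest in vector 1, while the medians of the nuclear groups are higher in the libraries numbered 1 than in those numbered 2.

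The ratio of mt to nuclear counts differed widely between libraries of 1 group. For complex I, 5 abundant mt mRNAs had 2.42 and 4.48 times the counts of the 38 nuclear subunits in vector 1 and 2, and 3.47 and 4.44 times in Jagged1 1 and 2. For complex III, mt-Cytb had 2.12 and 4.72 times the counts of the 8 nuclear members in vector 1 and 2 and 3.28 and 5.06 times those counts in Jagged1 1 and 2. For complex IV, mt-Co1 alone had 5.26, 7.97, 6.49 and 7.42 times the counts of the 16 nuclear members. In all 3 complexes the vector libraries differed by more than the group means did (exact two-sided permutation p = 1.0, 0.667 and 1.0).

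No member passed the adjusted threshold of 0.05 between the groups. By edgeR, 0 of 97 tested members were called higher and 0 lower, and over all tested genes the share called was 0.00752% higher and 0.0% lower. At an unadjusted p under 0.05 stood 1 of 97 members, where 3.96% of all tested genes did. DESeq2 called 0 members and 0.353% of all tested genes. The groups did not overlap, with Jagged1 higher, for 10 of 97 members (13.9% of all tested genes), and with Jagged1 lower for 7 (15.1% of all tested genes). These shares were near or under the background. The median log2 fold change of the members was -0.0024, as of all tested genes at -0.0025, and 91 of 97 lay within 0.25 log2 units of 0. The 6 members not tested for low counts were mt-Atp8, Cox4i2, Cox6a2, Cox6b2, Cox8b and Ndufa4l2.

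**Figure D3:**
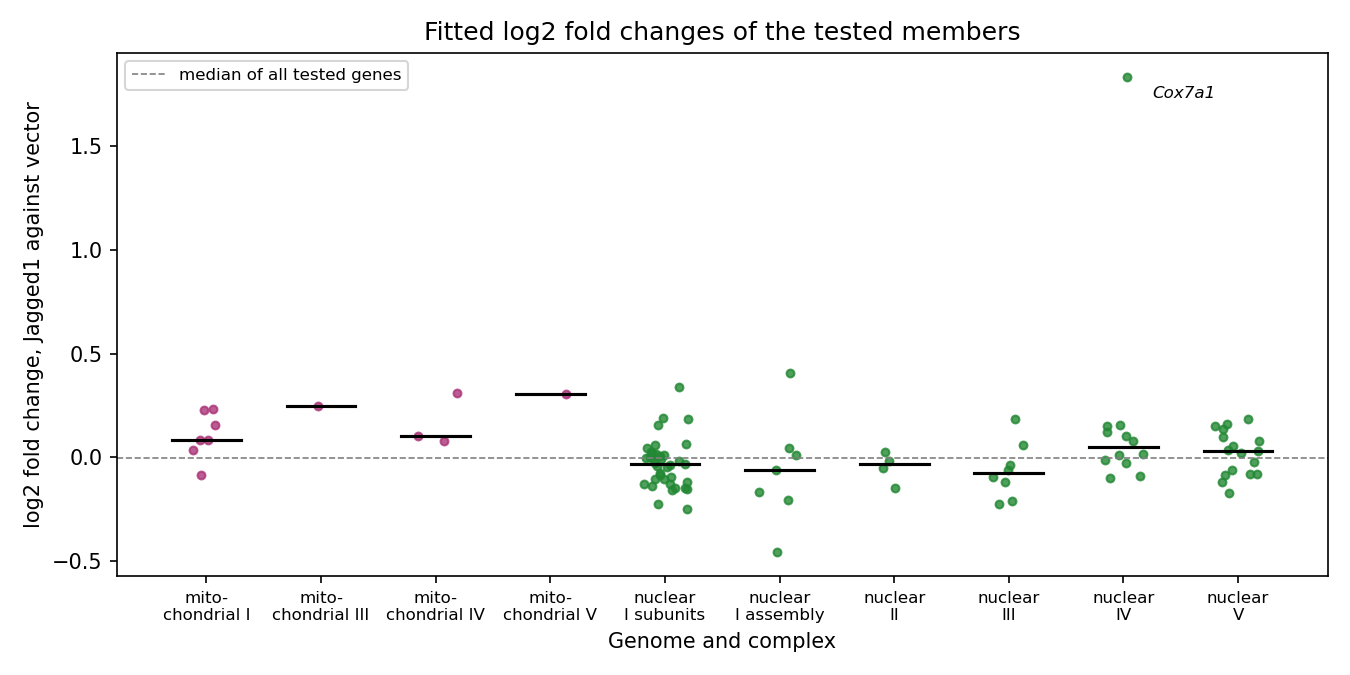
Fitted log2 fold change of each of the 97 tested members, Jagged1 against vector, by genome and complex; bars are group medians and the dashed line is the median of all tested genes. Most points lie within 0.25 of 0, and Cox7a1 stands apart at 1.83.

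The nuclear subunits of complex I, the NADH dehydrogenase, had a median log2 fold change of -0.03, with 13 positive and 24 negative values of 37 tested. Ndufv2 and Ndufs3, both subunits of the peripheral arm that takes up the electrons, stood at -0.14 and 0.01. Ndufv2 had 71.4 and 65.4 CPM in vector 1 and 2 and 65.9 and 58.3 CPM in Jagged1 1 and 2, and Ndufs3 had 60.2 and 47.6 CPM against 57.1 and 51.2 CPM. For both genes the library numbered 1 was the higher within each group, and neither passed the test. These genes were named after their values were seen.

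Of the accessory subunits, which surround the core, 29 were tested, with a median of -0.02. The lowest was Ndufs5, a subunit facing the intermembrane space, at 8.53 and 6.03 CPM in vector 1 and 2 and 6.15 and 6.14 CPM in Jagged1 1 and 2. Only vector 1 stood apart for Ndufs5, so its log2 fold change of -0.25 ± 0.31 rested on that library and was 0.05 without it. The highest was Ndufb2, at 2.71, 2.93, 2.90 and 4.26 CPM, where Jagged1 2 stood apart (log2 fold change 0.34 ± 0.38). Ndufb2 was also the lowest per kilobase of all tested nuclear members with an annotated length, at 0.569 CPM per kilobase of merged exons. That rank used a length of 5628 bases, and in CPM Ndufb2 (mean 3.20) was above Cox7a1 (mean 1.01). Jagged1 libraries lay above vector libraries without overlap for Ndufa1 and Ndufb3 (log2 fold changes 0.16 and 0.19), and below for Ndufa10, Ndufab1 and Ndufs4 (-0.15, -0.12 and -0.22); none of these 5 passed the test, and they are named after their values were seen. Among all tested genes, 13.9% lay above and 15.1% below without overlap, larger shares than the 2 and 3 of 37 subunits.

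The 7 Ndufaf genes encode factors that help to build complex I and are not part of the finished enzyme. They were less abundant per kilobase than the subunits, with a median of 5.35 CPM per kilobase against 26.2 for the subunits. Ndufaf1 had 8.13 and 9.36 CPM in the vector libraries and 11.3 and 11.8 CPM in the Jagged1 libraries, so that the groups did not overlap. Its log2 fold change of 0.41 ± 0.23 did not pass (edgeR unadjusted p = 0.136, adjusted p = 0.9999). Ndufaf5, a modifier of the quinone-binding region, ran the other way, at 10.6 and 8.39 CPM against 7.94 and 5.85 CPM, with a log2 fold change of -0.46 ± 0.30 (edgeR adjusted p = 0.9999). Ndufaf7, a methyltransferase, was the most abundant of the 7 by CPM, with nearly even values of 21.7, 20.9, 21.8 and 22.1 CPM.

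Complex II, which also serves the tricarboxylic acid cycle, had log2 fold changes between -0.15 and 0.03, none of them called. Sdha, the flavoprotein that oxidises succinate, had 238 and 200 CPM in vector 1 and 2 and 236 and 210 CPM in Jagged1 1 and 2, a log2 fold change of 0.03 ± 0.17. Sdhb, the iron-sulfur subunit, had 108 and 86.6 CPM against 94.1 and 82.0 CPM, a log2 fold change of -0.15 ± 0.18. For both genes the library numbered 1 was the higher within each group. The 4 subunits had a median of -0.03.

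Complex III members had a median log2 fold change of -0.08. The core protein Uqcrc1 had 243 and 181 CPM in vector 1 and 2 and 218 and 172 CPM in Jagged1 1 and 2 (log2 fold change -0.12 ± 0.22), again higher in number 1 of each group. Uqcrh, the hinge protein that binds cytochrome c1, lay higher in both Jagged1 libraries, at 53.8 and 51.5 CPM against 60.3 and 59.4 CPM. Uqcrb lay lower in both, at 28.9 and 34.9 CPM against 27.0 and 27.6 CPM. Their log2 fold changes were 0.18 ± 0.15 and -0.22 ± 0.18, and neither passed (edgeR adjusted p = 0.9999 for both). Of the 50-base words of Uqcrb, 43.4% occur in other transcripts, mostly of processed pseudogenes, so its count may hold or lack reads of those copies.

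Complex IV members had a median log2 fold change of 0.05, with 8 of 12 tested values positive. Cox4i1, the common form of a regulatory subunit, was the most abundant nuclear member of this complex by CPM, at 338 and 273 CPM in vector 1 and 2 and 294 and 281 CPM in Jagged1 1 and 2 (log2 fold change -0.09 ± 0.17). Cox5a, the lowest of the group, had 71.8, 62.1, 65.7 and 59.5 CPM, a log2 fold change of -0.10 ± 0.16. Apart from Cox7a1, all tested members of the group lay between -0.10 (Cox5a) and 0.16 (Cox7c).

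Cox7a1, the heart and skeletal muscle form of subunit VIIa, had the largest log2 fold change of all 97 tested members. It had 7 and 5 counts in vector 1 and 2 and 24 and 28 counts in Jagged1 1 and 2, or 0.463 and 0.407 CPM against 1.16 and 2.02 CPM. The groups did not overlap. The log2 fold change was 1.83 ± 0.56 (n = 2 and 2), with an unadjusted p of 0.0196 and an adjusted p of 0.9999 by edgeR. It ranged from 1.40 to 2.19 when each library was left out in turn. The muscle markers Myh4 and Myh6 were at 0 in every library, Ckm had at most 0.0722 CPM and Acta1 at most 0.581 CPM. Tnnt2 was present, at 41.9, 39.7, 53.0 and 20.7 CPM, and was lowest in Jagged1 2, where Cox7a1 was highest. Jagged1 2 also had the highest fibroblast marker sum, led by Col1a1 at 27.2 CPM against 1.06 to 1.95 CPM elsewhere. Dcn was highest in Jagged1 2 too, at 1.66 CPM, but Pdgfra was highest in Jagged1 1, at 8.03 CPM against 6.72 CPM in Jagged1 2. The summed endothelial markers, mostly Cdh5, were 0.661, 2.77, 0.581 and 6.28 CPM in vector 1, vector 2, Jagged1 1 and Jagged1 2. Of the adipocyte markers, Fabp4 had 0, 0, 0 and 7 counts in the same order of libraries, and Plin1 had 0 in every library. The part of other cells in the Cox7a1 counts was not tested.

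The common partners carried almost all counts of these isoform families. Cox7a2, the widespread form of subunit VIIa, had 62.5 and 50.1 CPM in the vector libraries and 67.6 and 57.4 CPM in the Jagged1 libraries, with a log2 fold change of 0.15 ± 0.19. Per kilobase its mean was 62.9 CPM, against 1.89 CPM for Cox7a1 and 67.6 CPM for Cox7a2l, a relative that takes part in supercomplex assembly. Cox6a1 and Cox8a, at 202 and 148 CPM per kilobase, were present without their muscle forms Cox6a2 and Cox8b, which had 0 counts in all 4 libraries; 3 counts would be 0.144 to 0.247 CPM before scaling. Cox4i2, a form known from lung, had 3, 3, 6 and 4 counts. Cox6b2, the testis form, had 0, 1, 2 and 9 counts, 9 of them in Jagged1 2, and Ndufa4l2 had at most 1 count, against 111 CPM per kilobase for Ndufa4.

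**Figure D4:**
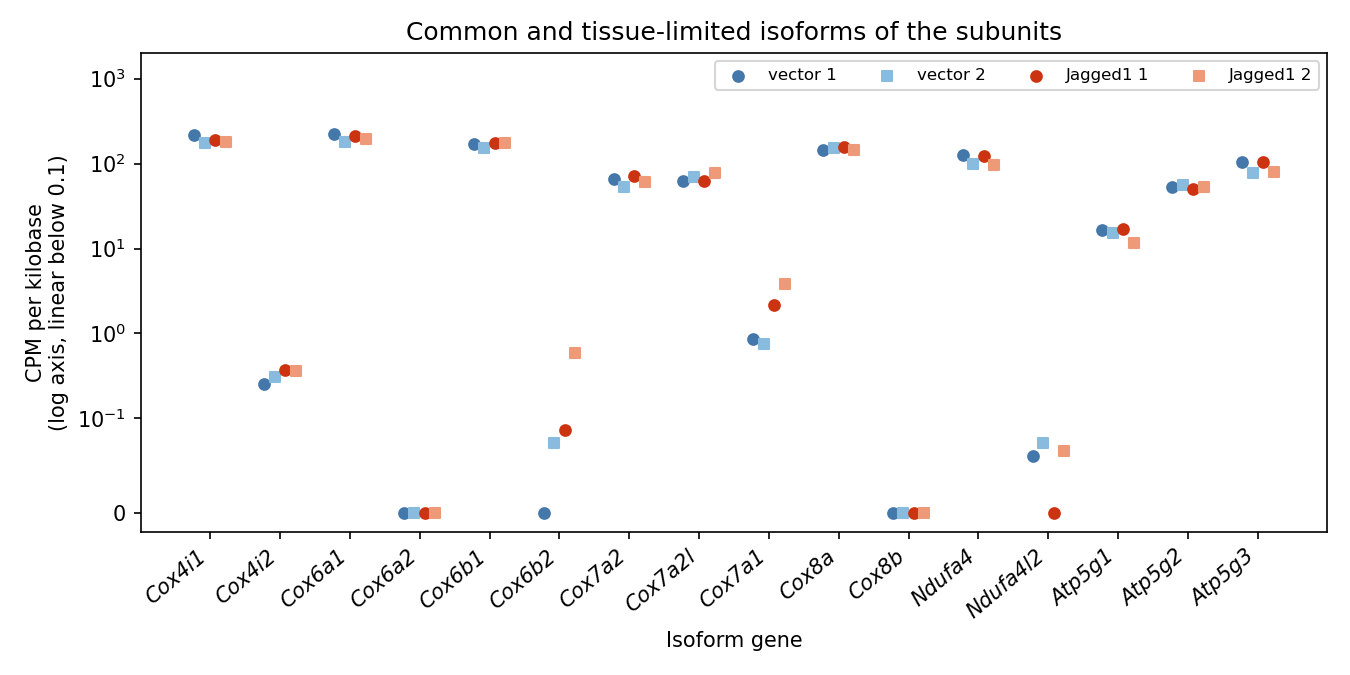
Levels of common and tissue-limited isoform genes in CPM per kilobase in the 4 libraries, on a log axis that is linear below 0.1. The common forms lie above 10 CPM per kilobase in every library, while Cox6a2 and Cox8b are at 0 and Cox7a1 lies between them, higher in both Jagged1 libraries.

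Complex V, the ATP synthase, held the highest nuclear levels. Atp5b, the catalytic beta subunit, had 1373 and 1082 CPM in vector 1 and 2 and 1301 and 1013 CPM in Jagged1 1 and 2. The library numbered 1 was higher in each group, and the groups overlapped (log2 fold change -0.09 ± 0.21). The 5 F1 subunits Atp5a1, Atp5b, Atp5c1, Atp5d and Atp5e, which form the catalytic head and its shaft, had a median log2 fold change of -0.08, with 1 positive and 4 negative. The 7 stalk and membrane subunits Atp5f1, Atp5h, Atp5j, Atp5j2, Atp5k, Atp5l and Atp5o had a median of 0.05, with 6 positive and 1 negative. None of these passed the test, and the difference between the sets was not tested. Atp5k, which helps the enzyme to form dimers, had 22.7, 18.3, 21.9 and 24.7 CPM, a log2 fold change of 0.18 ± 0.20.

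The proton-driven c ring is built from a single mature protein encoded by 3 genes that differ in their import sequences. Atp5g3 had the highest level of the 3 at a mean of 91.7 CPM per kilobase, followed by Atp5g2 at 53.0 and Atp5g1 at 15.0 CPM per kilobase. This order held in each library. In CPM without length, the means were 199.9, 88.7 and 73.7 for Atp5g3, Atp5g2 and Atp5g1. The wider gap per kilobase between Atp5g2 and Atp5g1 came from their merged exon lengths of 1675 and 4912 bases. Atp5g1, known to vary with the demand for the enzyme, had 81.0 and 75.1 CPM in vector 1 and 2 and 82.3 and 56.3 CPM in Jagged1 1 and 2. Jagged1 2 was the low library, and the log2 fold change of -0.17 ± 0.22 turned to 0.08 without it. Atp5g2 was nearly even at 87.9, 93.2, 84.5 and 89.3 CPM. Atp5g3 had 229, 168, 228 and 175 CPM, high in the libraries numbered 1.

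Per kilobase, the medians of the nuclear members of complexes II, III, IV and V were 47.5, 48.7, 49.3 and 49.1 CPM, and 26.2 CPM for complex I subunits. The complex IV median counts Cox6a2 and Cox8b at 0, Cox6b2 at 0.187, Cox4i2 at 0.324 and Cox7a1 at 1.89 CPM per kilobase. It would be higher without these isoforms, so its closeness to the other medians depends on them. The complex V median counts Atp5s, which does not encode a subunit, at 2.86 CPM per kilobase. With the longest transcript as the length in place of all exons merged, the medians of complexes II to V were 75.7, 71.5, 73.1 and 98.5 CPM. That of complex I was then 40.3 CPM. With all exons merged, the highest single values were 352 CPM per kilobase for Atp5h, 281 for Atp5b, 251 for Atp5a1, 202 for Cox6a1 and 191 for Cox4i1. By longest transcript the order changed, with Atp5b at 622 CPM per kilobase, Atp5h at 602, Cox4i1 at 388 and Atp5a1 at 294. For Atp5h, 47.9% of the 50-base words occur in other transcripts, and for Atp5l 84.8%. Of 89 nuclear members compared, 42 shared no such word and 10 shared over 30%.

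Promoters of the nuclear members were searched because the factors NRF1, GABP (an ETS factor) and YY1 are known to act on many of them. RefSeq windows of GRCm38.p6, from 250 bases before to 50 bases after each start, covered 75 of the 90 nuclear members in 81 windows. The core of the NRF1 site, GCGCATGC on either strand, stood in 14.8% of member windows and in 3.52% of all 21263 windows of coding genes. The YY1 word AAGATGGC stood in 14.8% against 3.05%, and the ETS word CCGGAAGT in 6.2% against 5.15%. At least 1 of the 3 stood in 34.6% of member windows against 10.99%. These are matches of letters, not measured binding. The first window shown, of Uqcr11, a small complex III subunit, holds an ETS and an NRF1 word (in capitals), and the second, of Cox7a1, the member with the largest log2 fold change, holds none of the 3.
Uqcr11 (chr10:80406772-80407071, minus strand): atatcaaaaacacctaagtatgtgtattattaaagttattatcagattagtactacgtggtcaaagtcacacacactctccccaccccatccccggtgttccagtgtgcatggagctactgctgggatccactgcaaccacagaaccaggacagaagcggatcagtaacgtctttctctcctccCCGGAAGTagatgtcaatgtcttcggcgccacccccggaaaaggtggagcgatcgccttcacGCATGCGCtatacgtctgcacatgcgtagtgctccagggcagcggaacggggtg
Cox7a1 (chr7:30183921-30184220, plus strand): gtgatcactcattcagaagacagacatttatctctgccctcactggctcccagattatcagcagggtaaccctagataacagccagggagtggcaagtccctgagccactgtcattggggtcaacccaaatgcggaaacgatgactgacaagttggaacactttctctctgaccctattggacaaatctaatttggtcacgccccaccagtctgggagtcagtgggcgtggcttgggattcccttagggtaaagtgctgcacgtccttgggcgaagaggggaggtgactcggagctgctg
Uqcr11 itself had 51.4 and 45.0 CPM in vector 1 and 2 and 48.2 and 42.3 CPM in Jagged1 1 and 2, high in the libraries numbered 1 like most nuclear members.

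The transcriptional regulators of these genes, among them the corepressor Nrip1, were not called either (0 of 12, edgeR). Their median log2 fold change was 0.07, with 10 positive and 2 negative. Nrf1 had 46.0 and 43.3 CPM in vector 1 and 2 and 46.1 and 37.8 CPM in Jagged1 1 and 2. Ppargc1a, the coactivator PGC-1alpha that drives mitochondrial biogenesis, was sparse at 2.18 and 3.34 CPM against 2.81 and 5.42 CPM, with overlapping groups and a log2 fold change of 0.57 ± 0.48. The other log2 fold changes ran from -0.27 for Pprc1 to 0.39 ± 0.91 for Ppargc1b. Ppargc1b had only 20, 3, 32 and 7 counts in vector 1, vector 2, Jagged1 1 and Jagged1 2. Gabpa stood at 0.18, Gabpb1 at 0.02, Gabpb2 at 0.06, Esrra at 0.0030 and Yy1 at 0.07. Creb1 stood at 0.36, Nrip1 at 0.33, Hcfc1 at 0.05 and Nrf1 at -0.09. Both Creb1 and Nrip1 were lowest in vector 1, and within number 2 their log2 differences were -0.011 and 0.053.

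Genes for the expression of mitochondrial DNA had a median log2 fold change of -0.06 over 29 tested genes, with 0 called, 10 positive and 19 negative. Tfam, which packages mitochondrial DNA and starts its transcription, had 53.4, 48.0, 54.0 and 45.1 CPM (log2 fold change -0.03 ± 0.17). Slirp, which stabilises mitochondrial mRNAs, was the lowest at -0.65 ± 0.45 from 49, 37, 53 and 19 counts, and Mterf1a the highest at 0.46 ± 0.38. The 76 mitochondrial ribosomal protein genes had a median of -0.13, with 63 negative, 13 positive and 0 called. Jagged1 was lower without overlap for 14 of these 76 and higher without overlap for 2, where 15.1% and 13.9% of all tested genes were. The ends of the list were Mrpl20, at 46.2, 34.4, 29.0 and 29.0 CPM (-0.48 ± 0.20), and Mrpl50, at 22.9, 21.4, 32.4 and 24.6 CPM (0.36 ± 0.20). Of 86 cytosolic ribosomal protein genes, 29 were positive and 57 negative with 0 called, and the median was -0.03. The extremes were sparse genes. Rpl36al stood at -0.79 ± 0.49 from 18, 13, 12 and 10 counts, and Rps3a3 at 0.46 ± 0.48 from 31, 22, 37 and 49 counts. Against the mean of the 4 libraries, the mitochondrial list had median log2 deviations of 0.19, -0.06, 0.098 and -0.22 in vector 1, vector 2, Jagged1 1 and Jagged1 2, so that Jagged1 2 was lowest and vector 1 highest. The cytosolic list had 0.10, -0.08, 0.02 and -0.05 in the same libraries.

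Electron carriers and assembly factors outside the rule numbered 50 tested, with a median of -0.02 and 0 called. Cycs, the mobile carrier cytochrome c, had 82.4 and 56.7 CPM in vector 1 and 2 and 70.3 and 41.8 CPM in Jagged1 1 and 2, a log2 fold change of -0.31 ± 0.31. Cyc1, the cytochrome c1 subunit of complex III whose symbol lies outside the rule, was at 157, 119, 138 and 99.4 CPM (-0.22 ± 0.23). Cox18, which inserts the tail of the COX2 protein into the inner membrane, had 42.8 and 40.7 CPM against 28.9 and 27.8 CPM. Its groups did not overlap, and its log2 fold change was -0.56 ± 0.15, close to the values of -0.56 and -0.55 within numbers 1 and 2, but it did not pass (edgeR unadjusted p = 0.013, adjusted p = 0.9952). Lyrm7, an assembly factor for the Rieske protein, had 3, 5, 21 and 11 counts (log2 fold change 1.595 ± 0.63, edgeR adjusted p = 0.9999).

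The 19 genes of the tricarboxylic acid cycle and pyruvate entry had a median log2 fold change of -0.07, with 4 positive and 15 negative and 0 called. They ran from -0.31 ± 0.19 for Pcx, which makes oxaloacetate from pyruvate, to 0.09 ± 0.15 for Idh2. The 3 tested carriers of adenine nucleotides and phosphate had a median of -0.05. Slc25a5, an ADP/ATP carrier of growing cells, had 436 and 392 CPM in vector 1 and 2 and 443 and 302 CPM in Jagged1 1 and 2 (log2 fold change -0.15 ± 0.22). Slc25a4, the muscle-enriched carrier, was at 272, 217, 280 and 226 CPM (0.05 ± 0.20).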

How the data were processed

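RNA of 2 vector and 2 Jagged1 libraries was compared. The authors deposited raw counts, 1 row for each gene symbol, made with STAR 2.6.0c and featureCounts 1.6.2 on mm10 (GRCm38), per the submitters' processing notes; no source used here gives the annotation release or the strand and multi-mapping settings. Groups came from the sample labels. In R 4.3.3, genes passing filterByExpr (minimum count 10) were TMM-scaled and tested with edgeR 4.0.16 (quasi-likelihood F test, robust), with Benjamini-Hochberg adjustment over all 13299 tested genes and a threshold of 0.05; the procedure was tested on simulated data. SE was derived from the log2 fold change and its F. Depth was 12136227 to 20835208 counts; 3 counts served as the floor. Differences within equal library numbers used log2 CPM with a prior count of 2. Alternatives were DESeq2 1.42.0, other scaling and filters, a replicate block and leaving out each library. Lengths, positions and shared 50-base words came from GENCODE M21; Atp5sl had no entry there.

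The members and lists were chosen with earlier results of these data known. Named genes were all mitochondrial mRNAs, the highest and lowest log2 fold change and highest mean CPM of each nuclear group, alternative isoforms, regulators and the extremes of related lists; other genes were named after their values were seen. Cox7b2 and Cox8c had no matching symbol. The result of 1 gene that the rule names is not reported here.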

Additional observations from a re-analysis of the deposited data

How the results depend on the processing

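No member was called, higher or lower, under any alternative. Over all tested genes, 47 were called by DESeq2, 17 with a replicate block and 169 with no filter on counts, against 1. Deviations from the group means had a correlation of 0.425 between libraries of equal number. With 2 libraries per group, libraries of unlike number must give the same value with the opposite sign. The correlation therefore cannot show that equal numbers pair the libraries, and they are not known to. Leaving out 1 library, which leaves a lone library assumed to vary like the other group, gave 0 to 193 called genes (0 without vector 1, 0 without vector 2, 193 without Jagged1 1 and 49 without Jagged1 2). The median log2 fold change of complex III was -0.0758 in the main fit and changed little, to -0.0733 with RLE factors and -0.0732 with DESeq2. It was -0.081 with no filter and -0.059 when genes averaging under 5 CPM were dropped. That of complex IV was 0.049 in the main fit, and 0.083 and 0.035 under the last 2. Leave-one-out medians ranged from -0.14 to 0.56 (mitochondrial), -0.11 to 0.54 (its 7 abundant mRNAs), -0.13 to 0.094 (nuclear), -0.17 to 0.11 (complex I), -0.28 to 0.04 (assembly), -0.11 to 0.069 (II), -0.20 to 0.065 (III), -0.018 to 0.092 (IV) and -0.10 to 0.12 (V). Named members changed sign 38 times, all when 1 library was left out. Ranges were -0.042 to 0.58 (mt-Nd1), -0.0099 to 0.54 (mt-Nd2), -0.18 to 0.62 (mt-Nd4), -0.66 to 1.42 (mt-Nd4l), -0.20 to 0.47 (mt-Nd5), -0.17 to 0.41 (mt-Nd6), -0.11 to 0.77 (mt-Cytb), -0.077 to 0.33 (mt-Co1), -0.072 to 0.84 (mt-Co2), -0.55 to 0.53 (mt-Co3) and -0.32 to 1.18 (mt-Atp6). For nuclear genes they were -0.48 to 0.049 (Ndufs5), -0.10 to 0.18 (Sdha), -0.30 to 0.046 (Sdhb), -0.33 to 0.13 (Uqcrc1), -0.21 to 0.033 (Cox5a), -0.24 to 0.094 (Cox4i1), -0.47 to 0.079 (Atp5g1), -0.28 to 0.12 (Atp5b), -0.16 to 0.22 (Cox6a1), -0.0079 to 0.34 (Cox7a2), -0.080 to 0.22 (Cox7a2l), -0.038 to 0.075 (Cox8a), -0.21 to 0.16 (Ndufa4) and -0.19 to 0.28 (Atp5g3). Counting unshared words in place of length was added after seeing the data. Depth limits Cox7a1, mt-Atp8 and the sparse isoforms.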
